A study of Homo sapiens with 6 samples.

Results

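Intestinal differentiation was followed through 10 genes in the established line HCT116, which comes from a human colorectal carcinoma. The genes were chosen by name: the transcription factor genes CDX1, CDX2 and HNF4A, the brush border gene VIL1, the adhesion genes CDH17, CEACAM1, CEACAM5 and CEACAM6, the trefoil factor gene TFF3 and the mucin gene MUC13. Each of the 10 matched 1 of the 60675 rows of the deposited count table. RNA was sequenced from 6 libraries in 3 groups of 2: cells with knockdown of PIR by small interfering RNA (siPIR), cells given SP2509 (3 uM, 48 h), and untreated cells. The genotype label is PIRIN Knockdown for the siPIR group and Wildtype for the SP2509 and untreated groups, and no time after transfection is given. SP2509 inhibits LSD1, a histone demethylase, and PIR encodes Pirin, a nuclear iron-binding protein. SP2509 is named in the treatment label of the siPIR samples too, no library is labelled as given a non-targeting siRNA, and a DMSO arm is named in the treatment protocol without being tied to a sample. Effects of Pirin loss, of transfection and of the compound cannot be told apart in the siPIR libraries. Nothing in the labels says that replicates came from separate cultures. The p-values therefore set group differences only against the variation among these samples, and that variation may be technical.

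The epithelium of the gut renews itself from crypt stem cells, and their progeny become absorptive enterocytes, mucus-secreting goblet cells and rarer secretory types. CDX1 and CDX2 are homeodomain factors that set intestinal identity, and HNF4A is a nuclear receptor that drives enterocyte genes together with them. Their targets include VIL1, which encodes the actin-bundling protein villin of microvilli, and CDH17, which encodes the intestinal cadherin LI-cadherin. CEACAM1, CEACAM5 and CEACAM6 are immunoglobulin-type adhesion molecules of epithelial cells, CEACAM5 being the carcinoembryonic antigen. TFF3 is a goblet cell peptide and MUC13 a transmembrane mucin.

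The libraries held between 22622441 and 28816590 counts. Levels are given as CPM, counts scaled to a common library size with factors from trimmed means (TMM), with the SD over 2 libraries. Where a library had 0 counts, up to 3 remain possible, a limit of 0.0830 to 0.157 CPM that covers counting error only. PIR had 37 and 39 counts in siPIR libraries, against 519 and 462 in untreated libraries, in the direction of the knockdown label (a log2 change of -2.87 ± 0.175, SE, with an edgeR adjusted p = 3.39e-09, and -2.0 with the GC-length offset described next). The colorectal epithelial markers EPCAM, KRT8, KRT18, KRT19 and CDH1 were expressed in every library, while LGALS4, VIL1 and CDH17 were near the floor of counting. KDM1A, the gene of LSD1, changed by -0.43 in SP2509 cells on the log2 scale (edgeR adjusted p = 0.00117). Fold changes of siPIR against untreated cells followed the GC content of the transcript across all genes. The median log2 fold change was 1.08 over 3451 tested genes with 40 to 45% GC and -2.61 over 2429 genes with 55 to 60% GC. Averaged over counts, GC content was 42.3% and 42.8% with siPIR, 48.3% and 48.5% with SP2509, and 48.7% and 48.5% in untreated libraries. Fitted siPIR fold changes are therefore set beside a second value, from a fit in which a smooth trend with GC content and length was taken out as an offset. The offset left part of the trend at high GC. With it the median log2 fold change in siPIR against untreated cells was -0.52 over 1790 genes with 60 to 65% GC. Over 607 genes with 65% GC or more it was -1.26.

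Most of the differentiation genes were not detected, or nearly so, in every group. CDX1, CEACAM6 and TFF3 had 0 counts in all 6 libraries. CEACAM5 had 1 count in all, in untreated replicate 1. CDH17 had 1 count in each siPIR library, 1 and 4 in the SP2509 libraries, and none in untreated cells. These 5 genes were at or below the level that counting can resolve, apart from SP2509 replicate 2 for CDH17, which stood at 0.155 CPM. VIL1 and MUC13 were detected at a few counts per library. Only 3 of the 10 genes passed the filter on low counts and were tested: CDX2 with 1557 counts over the 6 libraries, HNF4A with 955 and CEACAM1 with 794. The other 7 together had 88 counts of a total of 153671752.

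**Figure D1:**
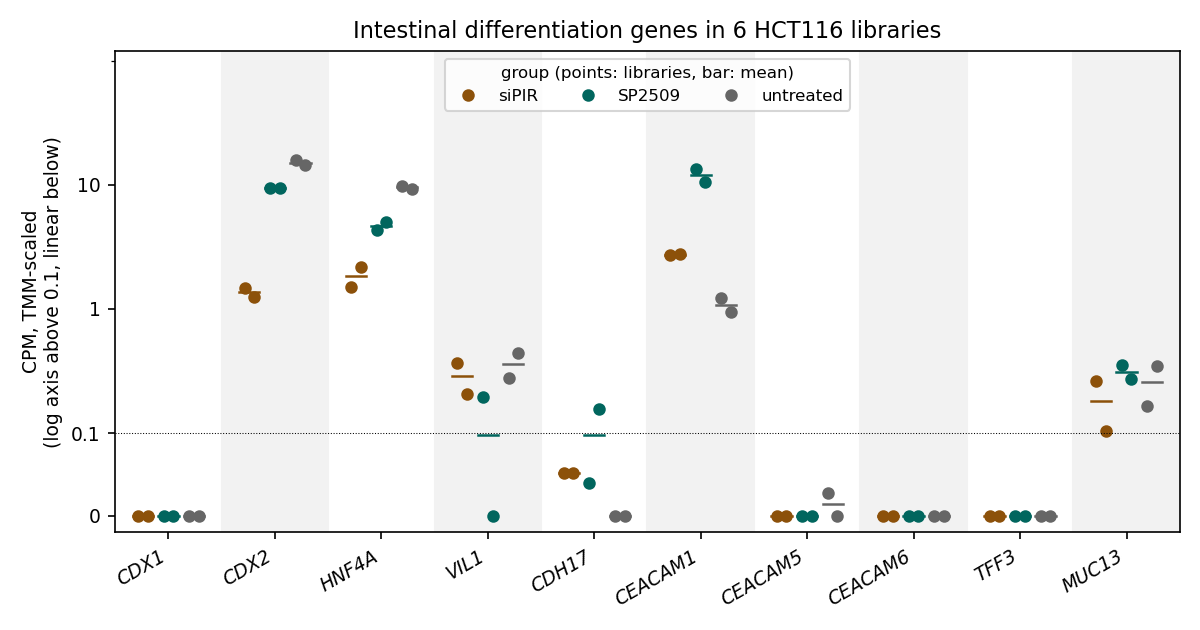
Level of each of the 10 genes in CPM after TMM scaling, on an axis that is logarithmic above 0.1 and linear below it. Points are libraries, short bars are group means, and the groups run siPIR, SP2509, untreated from left to right within a gene. CDX2, HNF4A and CEACAM1 lie near or above 1 CPM, VIL1 and MUC13 below 0.5 CPM, and the other genes at or near 0.

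Per kilobase of the longest annotated transcript, CDX2 was the most abundant of the 10 genes in untreated cells, at 3.71 ± 0.251 CPM per kb (SD, n = 2). HNF4A followed at 1.48 ± 0.0612 and CEACAM1 at 0.308 ± 0.0539 CPM per kb. MUC13 stood at 0.0892 ± 0.0447 and VIL1 at 0.0551 ± 0.0180 CPM per kb, and their ranges overlapped. On this scale 45.9% of all tested genes lay below CDX2 in untreated cells, 29.6% below HNF4A and 10.0% below CEACAM1. In SP2509 cells the order began with CEACAM1 at 3.41 ± 0.587 CPM per kb, then CDX2 at 2.32 ± 0.00685 and HNF4A at 0.720 ± 0.0793 CPM per kb, and 45.4% of tested genes lay below CEACAM1. In siPIR cells CEACAM1 stood at 0.778 ± 0.00868 CPM per kb, with CDX2 at 0.335 ± 0.0372 and HNF4A at 0.287 ± 0.0737 CPM per kb. The ranges of CDX2 and HNF4A overlapped there. These levels are without the GC-length offset, and GC content was 47.2% for CEACAM1, 56.4% for CDX2 and 52.8% for HNF4A. Whether the order in siPIR cells holds apart from the GC trend was not tested.

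CDX2 (ENSG00000165556, chromosome 13, 27962137 to 27971139, minus strand, GRCh38, protein-coding) and HNF4A (ENSG00000101076, chromosome 20, 44355700 to 44434596, plus strand) were the expressed intestinal transcription factors of the set, and both were lower in both treated groups. Their RefSeq promoters, from 250 bases before to 50 after the start (GRCh38.p14), are shown because these genes fell together. HNF4A has an upstream and a downstream promoter, and counts per gene do not separate the transcripts that start from them. Capitals mark TTTAT, the core letters of CDX sites, and TGANTCA, the AP-1 motif, on either strand.
CDX2 promoter, chr13:27969266-27969565, minus strand: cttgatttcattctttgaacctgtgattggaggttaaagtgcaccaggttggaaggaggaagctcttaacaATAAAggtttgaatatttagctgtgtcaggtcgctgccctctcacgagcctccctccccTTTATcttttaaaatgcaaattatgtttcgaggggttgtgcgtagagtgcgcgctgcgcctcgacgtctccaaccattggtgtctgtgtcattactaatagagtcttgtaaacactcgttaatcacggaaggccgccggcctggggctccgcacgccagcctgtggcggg
HNF4A upstream promoter, chr20:44355449-44355748, plus strand: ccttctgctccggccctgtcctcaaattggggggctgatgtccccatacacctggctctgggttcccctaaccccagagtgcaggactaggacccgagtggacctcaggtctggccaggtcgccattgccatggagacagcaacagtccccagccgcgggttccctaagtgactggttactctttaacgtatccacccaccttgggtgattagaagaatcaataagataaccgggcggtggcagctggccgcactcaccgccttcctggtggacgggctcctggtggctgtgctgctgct
HNF4A downstream promoter, chr20:44400989-44401288, plus strand: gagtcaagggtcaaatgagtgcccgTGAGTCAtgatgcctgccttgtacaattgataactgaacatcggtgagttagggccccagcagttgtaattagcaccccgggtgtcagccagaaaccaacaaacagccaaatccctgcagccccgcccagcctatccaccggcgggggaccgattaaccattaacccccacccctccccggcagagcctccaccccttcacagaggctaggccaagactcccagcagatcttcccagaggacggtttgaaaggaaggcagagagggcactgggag
The CDX2 promoter held TTTAT on opposite strands at -179 and -120, counted from the start. The upstream HNF4A promoter held none of the 4 motifs searched. The downstream HNF4A promoter held TGANTCA at -225. The HNF4 motif CAAAGTNCA and the E-box CACGTG, also searched, were in none of the 3, and no matches overlapped. Of 35116 promoters of this length, 34.9% held TTTAT, 7.71% TGANTCA, 1.1% CAAAGTNCA and 7.26% CACGTG. A match is a description of letters and not a site.

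With SP2509, CDX2 and HNF4A fell and CEACAM1 rose relative to untreated cells. CDX2 was at 9.39 and 9.43 CPM in SP2509 libraries (239 and 243 counts), against 15.8 and 14.3 CPM in untreated libraries (570 and 453.1 counts). Both SP2509 libraries lay below both untreated ones, and the SP2509 level was 62.3% of the untreated level, where exact counting limits at 95% ran between 55.8% and 69.5%. The log2 fold change was -0.68 (SE 0.118, edgeR adjusted p = 0.000226). In bulk RNA a lower level per cell and fewer expressing cells cannot be told apart. HNF4A was at 4.28 and 5.0 CPM in SP2509 libraries (109 and 129 counts), against 9.79 and 9.23 CPM in untreated libraries (354 and 292 counts). The groups did not overlap, and HNF4A stood at 48.7% of the untreated level (41.8% to 56.6%), or -1.03 on the log2 scale (SE 0.152, edgeR adjusted p = 5.65e-05). The genes annotated across HNF4A on the opposite strand, HNF4A-AS1 and AL117382.2, had at most 1 count in any library. In the fit with the GC-length offset the log2 fold changes were -0.54 for CDX2 (edgeR adjusted p = 0.000317) and -0.97 for HNF4A (edgeR adjusted p = 2.90e-06).

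CEACAM1 (ENSG00000079385, chromosome 19, 42507304 to 42561234, minus strand) encodes an adhesion receptor with inhibitory signalling motifs in its long tail form. It was at 13.5 and 10.6 CPM in SP2509 libraries (343 and 272 counts), against 1.22 and 0.949 CPM in untreated libraries (44.5 and 30 counts). Every SP2509 library was above every untreated library, and the log2 fold change was 3.46 (SE 0.192, edgeR adjusted p = 1.68e-08), which put it at 1099% of the untreated level (863% to 1419%). It stood above the 90th percentile of the 2888 tested genes with 45 to 50% GC, which was 1.21. The related genes CEACAM5 and CEACAM6, at 41708585 to 41729798 and 41750977 to 41772208 on the plus strand of the same chromosome, had 0 counts in both SP2509 libraries. CEACAM genes have stretches of near-identical sequence, and fractional values occur in the CEACAM1 row. The rows of CEACAM5, CEACAM6 and the other listed CEACAM genes held whole values only. The origin of the fractions was not tested. LIPE-AS1 overlaps CEACAM1 on the opposite strand. The library kit marks strand, per the labels' protocols, but the sources used here do not give the strand setting of the counting. LIPE-AS1 had 45.7 and 39 counts with SP2509, against 67 and 58 without it.

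The promoters of the 3 CEACAM genes are shown because CEACAM1 rose while CEACAM5 and CEACAM6 stayed at the floor of counting. Capitals mark TTTAT on either strand and CACGTG, the E-box read by USF factors.
CEACAM1 promoter, chr19:42528432-42528731, minus strand: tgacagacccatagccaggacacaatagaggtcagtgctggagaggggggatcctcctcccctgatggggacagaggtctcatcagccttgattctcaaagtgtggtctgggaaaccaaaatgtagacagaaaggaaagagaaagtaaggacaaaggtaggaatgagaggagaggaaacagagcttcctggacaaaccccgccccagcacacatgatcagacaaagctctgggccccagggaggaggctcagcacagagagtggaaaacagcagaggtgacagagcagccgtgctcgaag
CEACAM5 promoter, chr19:41708376-41708675, plus strand: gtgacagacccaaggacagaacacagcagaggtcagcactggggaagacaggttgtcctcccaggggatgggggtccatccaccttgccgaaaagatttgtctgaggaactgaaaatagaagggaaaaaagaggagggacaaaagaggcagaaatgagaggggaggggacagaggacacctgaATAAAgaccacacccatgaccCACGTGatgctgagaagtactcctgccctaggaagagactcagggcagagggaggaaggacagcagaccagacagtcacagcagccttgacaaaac
CEACAM6 promoter, chr19:41755280-41755579, plus strand: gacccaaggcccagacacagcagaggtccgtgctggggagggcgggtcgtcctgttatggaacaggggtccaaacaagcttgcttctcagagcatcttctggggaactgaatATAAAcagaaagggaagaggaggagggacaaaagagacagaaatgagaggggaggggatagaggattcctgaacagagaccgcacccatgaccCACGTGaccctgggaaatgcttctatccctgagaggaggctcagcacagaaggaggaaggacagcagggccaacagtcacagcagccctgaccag
In a global alignment CEACAM1 shared 65.6% of aligned positions with CEACAM5 and 68.2% with CEACAM6, and CEACAM5 shared 74.7% with CEACAM6. The CEACAM1 window held none of the 4 motifs searched. CEACAM5 and CEACAM6 each held CACGTG, at -46 and -45 from the start, and TTTAT on the reverse strand, at -67 and -138. Of the 10 genes, 6 had an entry in the RefSeq table. The remaining entry, MUC13, held CAAAGTNCA and TGANTCA.

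The counts of calls have to be read against a broad background. Of the 3 tested genes 1 was higher and 2 were lower in SP2509 cells, and over all 16503 genes tested 68.6% passed the threshold of an adjusted p of 0.05 (33.5% higher and 35.1% lower), and 72.7% with the offset. With such a background the number of calls is not by itself a result about these genes. The median log2 fold change of all tested genes stood at -0.04 under TMM, -0.27 under upper-quartile factors and -0.43 by total counts alone. Among the genes called, 48.8% were higher in SP2509 cells under TMM, 36.2% under upper-quartile factors and 28.3% by total counts alone. With total counts alone CDX2 changed by -1.07, HNF4A by -1.42 and CEACAM1 by 3.07, in the same directions.

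VIL1 and MUC13 were too low to pass the count filter. VIL1 had 5 and 0 counts in SP2509 libraries, against 10 and 14 in untreated libraries. The groups did not overlap, and the summed level was 27.6% of the untreated level with limits of 8.21% and 73.7%. Equality lies outside these limits, but the value rests on few reads: with no count filter the log2 fold change was -1.80 (edgeR adjusted p = 0.0316), with DESeq2 the adjusted p was 0.234, and without SP2509 replicate 2 the log2 fold change was -0.82 (edgeR adjusted p = 0.374). MUC13 had 9 and 7 counts in SP2509 libraries, against 6 and 11 in untreated libraries, and the groups overlapped. Its summed level was 125% of the untreated level (58.9% to 262%), so a difference was not detectable at this depth. USP37, which overlaps the end of VIL1 on the opposite strand, had 1476.1 and 1284 counts with SP2509, against 1332 and 1208 in untreated libraries.

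In siPIR cells CDX2 and HNF4A were also lower and CEACAM1 higher than in untreated cells. CDX2 was at 1.46 and 1.25 CPM in siPIR libraries (28.1 and 24 counts), against 15.8 and 14.3 CPM in untreated libraries, 8.98% of the untreated level (6.66% to 11.9%). The log2 fold change was -3.47 (SE 0.170, edgeR adjusted p = 4.58e-10). With a GC content of 56.4%, CDX2 lay between the 10th and 90th percentiles of tested genes with 55 to 60% GC, which were -4.29 and -0.94. With the GC-length offset the log2 fold change was -1.32 (SE 0.196, edgeR adjusted p = 4.14e-06). HNF4A was at 1.51 and 2.19 CPM in siPIR libraries (29 and 42 counts), against 9.79 and 9.23 CPM in untreated libraries, 19.4% of the untreated level (15.0% to 24.8%). Its log2 fold change was -2.36 (SE 0.189, edgeR adjusted p = 5.52e-08) and -1.25 with the offset (SE 0.188, edgeR adjusted p = 4.52e-06). HNF4A has a GC content of 52.8%, and the 10th and 90th percentiles of the 2590 tested genes with 50 to 55% GC were -2.76 and 0.35. The part of the GC trend in these falls was not tested beyond the offset.

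CEACAM1 was at 2.72 and 2.76 CPM in siPIR libraries (52.1 and 53 counts), against 1.22 and 0.949 CPM in untreated libraries. Both siPIR libraries were above both untreated ones, by 1.32 on the log2 scale (SE 0.248, edgeR adjusted p = 0.000232). At a GC content of 47.2% it lay just above the 90th percentile of genes with 45 to 50% GC, which was 1.28, and the value with the offset was 1.32 (edgeR adjusted p = 6.72e-05). With total counts alone it was 0.71 (edgeR adjusted p = 0.0172). The summed counts were 105 in the siPIR libraries and 74 in the untreated libraries. LIPE-AS1 had 13 and 18 counts in siPIR libraries and 67 and 58 in untreated libraries. Of the 3 tested genes 1 was higher and 2 were lower in siPIR cells, beside 86.1% of all tested genes past the threshold (39.3% higher and 46.9% lower), and 65.1% with the offset. Of the genes called, 45.6% were higher with TMM and 33.9% with total counts alone.

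**Figure D2:**
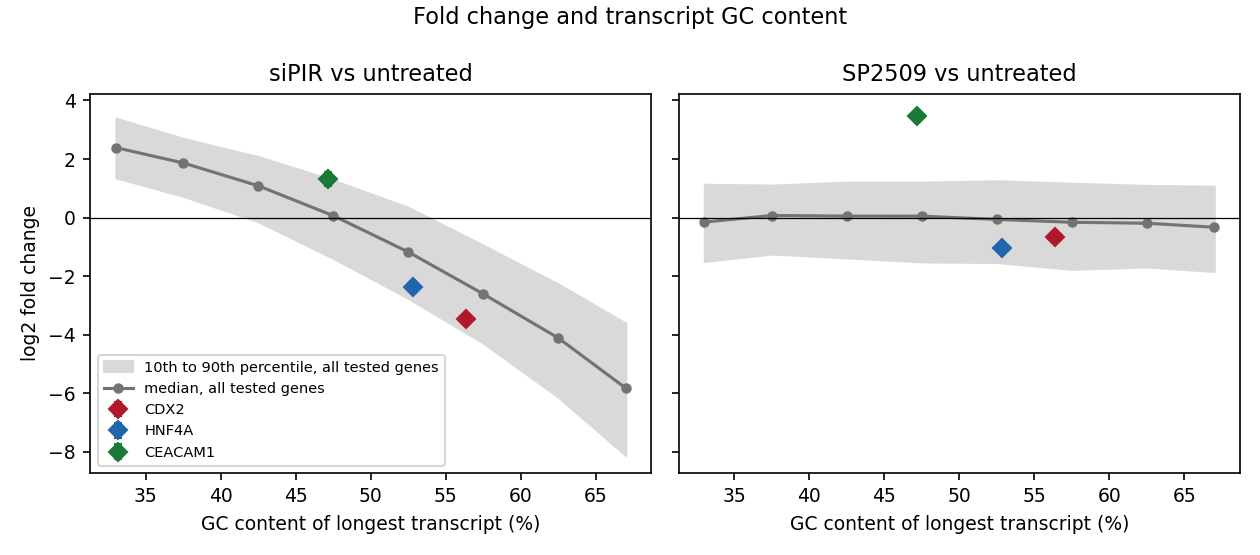
Log2 fold change against the GC content of the longest transcript, for siPIR against untreated cells on the left and SP2509 against untreated cells on the right. Grey points are medians of all tested genes in bins of GC content, the band runs from the 10th to the 90th percentile, and diamonds are CDX2, HNF4A and CEACAM1. In siPIR cells CDX2 (-3.47) and HNF4A (-2.36) lie within the band, while CEACAM1 lies at its upper edge there (1.32) and above the band in SP2509 cells (3.46).

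VIL1 had 7 and 4 counts in siPIR libraries, against 10 and 14 in untreated libraries, which on the CPM scale overlapped, and the summed level after scaling was 81.0% of the untreated level (35.8% to 172%). MUC13 had 5 and 2 counts in siPIR libraries, against 6 and 11 in untreated libraries, at 72.8% of the untreated level (25.5% to 185%). In neither gene did the interval exclude equality, and at this depth changes inside these intervals were not detectable. USP37 had 3167 and 3049 counts in siPIR libraries.

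Set directly against SP2509 cells, siPIR cells had less of all 3 tested genes. CEACAM1 was at 2.72 and 2.76 CPM in siPIR libraries, against 13.5 and 10.6 CPM in SP2509 libraries, or -2.13 on the log2 scale (SE 0.184, edgeR adjusted p = 1.24e-07) and -2.18 with the offset. The rise of CEACAM1 over untreated cells was thus larger in SP2509 cells by the test of the difference itself. CDX2 differed by -2.79 (SE 0.182, edgeR adjusted p = 6.92e-09), and by -0.78 with the offset (SE 0.208, edgeR adjusted p = 0.00220). HNF4A differed by -1.32 (SE 0.211, edgeR adjusted p = 5.65e-05), but by -0.29 with the offset, where it did not pass the threshold (SE 0.210, edgeR adjusted p = 0.230). In this comparison 84.3% of all tested genes passed the threshold (38.8% higher and 45.5% lower), and 69.7% with the offset. VIL1 had 7 and 4 counts in siPIR libraries, against 5 and 0 with SP2509, a ratio of 294% (94.1% to 1079%). This value rests on SP2509 replicate 1: without it the SP2509 group has 0 counts, with a fitted log2 fold change of 5.93 (edgeR adjusted p = 0.0154) that is no bound, and without SP2509 replicate 2 the log2 fold change was 0.53 (edgeR adjusted p = 0.576). The comparisons share libraries, so their values are set side by side and not correlated.

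**Figure D3:**
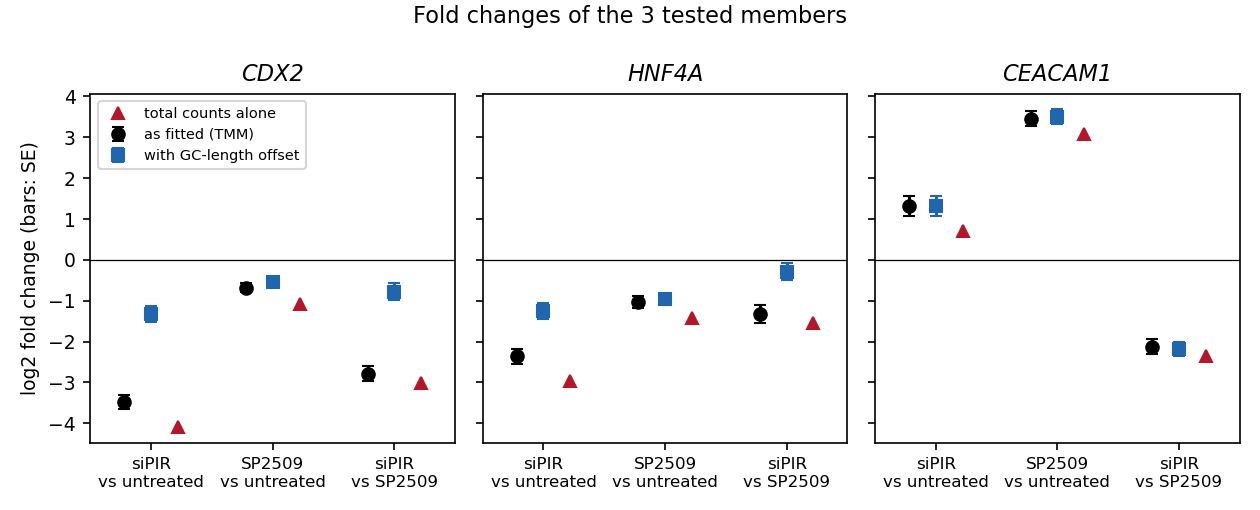
Log2 fold changes of CDX2, HNF4A and CEACAM1 in the 3 comparisons, with circles for TMM scaling, squares for the fit with the GC-length offset and triangles for total counts alone. Bars are standard errors. In siPIR against untreated cells CDX2 stands at -3.47 with TMM and -1.32 with the offset, HNF4A at -2.36 and -1.25, and CEACAM1 at 1.32 in both.

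A ratio within a library does not depend on scaling, but it keeps the trend with GC content. The ratio of CDX2 counts to HNF4A counts in the same library was 0.969 and 0.571 with siPIR, 2.19 and 1.88 with SP2509, and 1.61 and 1.55 in untreated libraries. The groups did not overlap, and the differences in this ratio were not tested. With the GC-length offset the changes of CDX2 (-1.32) and HNF4A (-1.25) in siPIR against untreated cells were close to each other. CEACAM1 counts relative to HNF4A counts were 1.80 and 1.26 with siPIR, 3.15 and 2.11 with SP2509, and 0.126 and 0.103 in untreated libraries.

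The other transcription factors of the gut were split in direction in SP2509 cells. Calls in this list and the next ones stand beside 33.5% of all tested genes higher and 35.1% lower with SP2509, and 39.3% and 46.9% with siPIR. Of 30 listed genes 21 were tested, and 9 were higher and 5 lower in SP2509 cells, with a median log2 fold change of 0.03, against -0.04 over all tested genes. With total counts alone 6 were higher and 12 lower. PRDM1, a repressor known from the fetal gut of mice, rose by 2.99 and KLF4, a factor of terminally differentiated colonic epithelium, by 2.73. ID2, an inhibitor of helix-loop-helix factors, fell by 1.66 and the epithelial ETS factor EHF by 1.34 on the log2 scale. These 4 had edgeR adjusted p-values of 3.34e-07 or lower. In siPIR cells 8 of the 21 were higher and 10 lower (median -0.49, against -0.28 over all tested genes), with the offset 12 were higher and 2 lower, and with total counts alone 7 were higher and 13 lower. PRDM1 rose by 2.77 (2.42 with the offset), KLF4 by 2.67 (4.46) and KLF5 by 2.14 (2.10), while PDX1 changed by -3.21 as fitted and -0.10 with the offset.

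Most enterocyte genes, like VIL1 and CDH17, were near or below the floor of counting. Of 51 listed genes 34 had up to 40 counts over the 6 libraries, 13 of these none at all, and 17 were tested. FABP1, SI and GUCA2A, the genes of liver-type fatty acid binding protein, sucrase-isomaltase and guanylin, were among those with 0 counts. In SP2509 cells 6 were higher and 5 lower (median -0.11), and 5 and 8 with total counts alone. The actin-associated gene BAIAP2L1 rose by 1.92, the maltase-glucoamylase gene MGAM by 1.52 and EZR, the gene of the membrane linker ezrin, by 1.19. KRT20, the keratin of mature enterocytes, fell to 0.273 ± 0.0528 CPM in SP2509 cells (6 and 8 counts), against 2.34 ± 0.492 CPM in untreated cells (72 and 85 counts). Its log2 fold change was -3.07 (SE 0.335, edgeR adjusted p = 4.35e-06), and the peptidase gene DPP4 fell by 1.51. In siPIR cells 5 were higher and 8 lower (median -0.40), and 2 and 11 with total counts alone. With the offset the numbers were the same but the genes were not, as EPS8 went from 0.81 to -0.50 and MYO1D from -0.41 to 0.53. KRT20 fell to 0.548 ± 0.0381 CPM in siPIR cells, on 11 and 10 counts (log2 fold change -2.08, SE 0.313, edgeR adjusted p = 3.28e-05, and -2.36 with the offset). PLS1, the gene of a microvillar bundling protein, rose by 1.94 but stood at 0.0019 with the offset. ESPN, the gene of espin, changed by -6.21 (-1.04 with the offset), and SLC9A3R1, the gene of an ezrin-binding scaffold, by -3.97 (-0.43 with the offset). These offset values were not below the medians that remained over all tested genes of like GC content, -1.26 for ESPN and -0.52 for SLC9A3R1.

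Goblet cell genes and mucins were low in part. Of 29 listed genes 17 had up to 40 counts over the 6 libraries, as TFF3 and MUC13 did, 7 of these had 0 counts in all libraries, AGR2 among them, and 12 were tested. MUC2, the main secreted mucin gene of the colon, had no count in siPIR libraries, 1 and 3 with SP2509, and 8 and 4 in untreated libraries. In SP2509 cells 2 were higher and 3 lower (median -0.27), and 1 and 6 with total counts alone. C1GALT1, which encodes the core O-glycan galactosyltransferase, rose by 0.70. KLK1 changed by -0.92 and MUC1 by -0.75, and neither passed the threshold with DESeq2 (adjusted p = 0.189 and 0.243). Without SP2509 replicate 1 or untreated replicate 1 they also lost the call (edgeR adjusted p = 0.169 and 0.168 for KLK1, 0.216 and 0.0598 for MUC1), and MUC1 without untreated replicate 2 (0.152) and with the GC-length offset (0.246). In siPIR cells 3 were higher and 8 lower (median -1.78), against 4 higher and 5 lower once the offset was applied (median 0.0033). With total counts alone 2 were higher and 9 lower. C1GALT1 rose by 3.02 (0.93 with the offset), and FCGBP, a mucus component, fell to 0.104 ± 0.0735 CPM in siPIR cells, against 8.59 ± 1.46 CPM in untreated cells (log2 fold change -6.30, and -2.53 with the offset). That siPIR level rests on 4 counts in all. The transmembrane mucin gene MUC12 changed by -3.49 (-1.87 with the offset).

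Of the 9 other CEACAM family genes 5 had 0 counts in all libraries, and CEACAM19 alone was tested. It was at 4.74 ± 0.290 CPM in SP2509 cells, against 2.58 ± 0.298 CPM in untreated cells, or 0.87 on the log2 scale (SE 0.194, edgeR adjusted p = 0.00148). In siPIR cells it stood at 1.23 ± 0.477 CPM, a log2 fold change of -1.08 (edgeR adjusted p = 0.00182) that was 0.49 with the offset (edgeR adjusted p = 0.116).

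**Figure D4:**
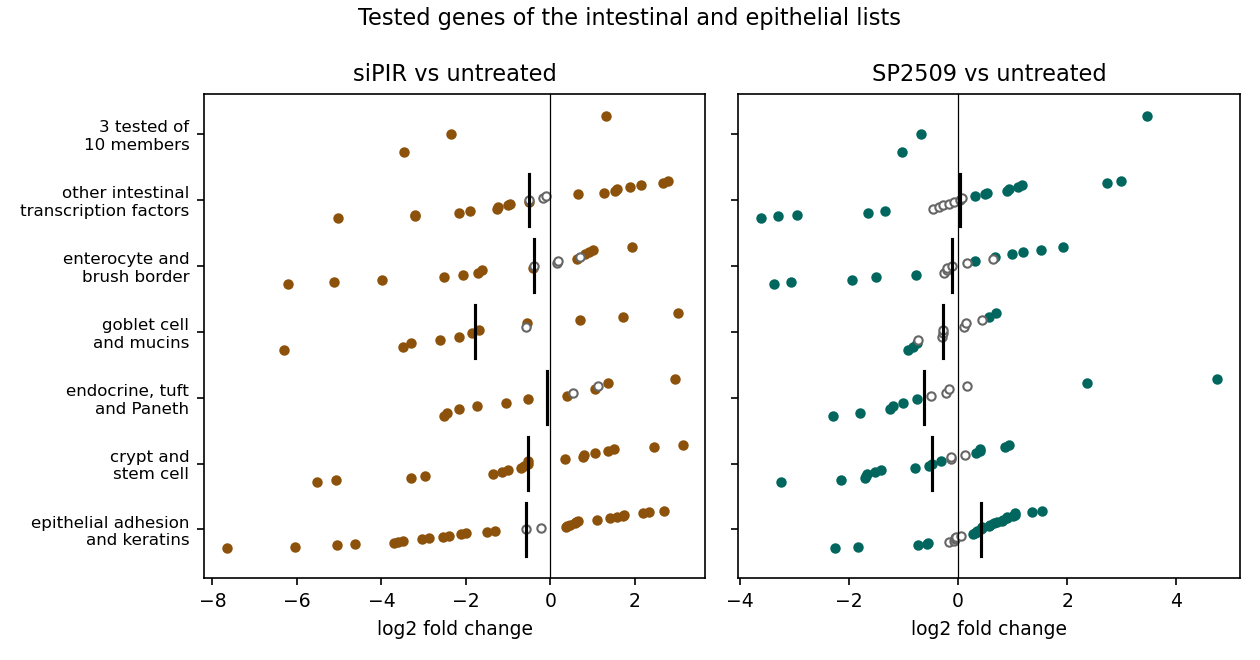
Log2 fold changes of the tested genes of each list, for siPIR against untreated cells on the left and SP2509 against untreated cells on the right. Filled points passed an edgeR adjusted p of 0.05, open points did not, and black bars are medians of the tested genes. The goblet cell and mucin list has its median at -1.78 in siPIR cells and at -0.27 in SP2509 cells.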

How the data were processed

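Processing before deposit is known only in part. Per the submitters' processing notes the tools were HISAT2, featureCounts, Subread 1.6.2, Trimmomatic 0.32, FastQC 0.11.8 and edgeR 3.26.4, with build GRCh38, and libraries were made with a strand-marking kit per the labels' protocols. The deposited values are the authors' estimated counts per gene, not normalized: 14531 of 60675 rows hold a value that is not whole. They were rounded and fitted with edgeR 4.0.16 (R 4.3.3) by the quasi-likelihood test over all 6 libraries as 3 groups, with filterByExpr, TMM scaling and Benjamini-Hochberg adjustment over 16503 genes. Standard errors, GC content and length (longest transcript, GENCODE release 29) were computed here. The GC-length offset took out a smooth trend of each library with both, by natural splines of 5 degrees of freedom, and left part of it at high GC. Alternatives used DESeq2 1.42.0, limma 3.58.1, other scalings, filters and left-out libraries. The fit was also run on simulated data with changes in the SP2509 group only. These had no trend with GC content, so that run says nothing about the trend in siPIR libraries. Library totals were 24062794 and 22622441 counts for siPIR, 26167926 and 27058580 for SP2509, and 28816590 and 24945320 for untreated cells, and intervals cover counting error only. Genes named from the wider lists were up to 3 of the largest rises and falls past the threshold with a mean of at least 1 CPM, plus fixed markers. Some genes with 0 counts were named as well. ELF3, CLDN7, EPS8 and MYO1D were named because their sign turned with the offset. The 10 genes and the lists were chosen with earlier results of these data known. The sources used here do not explain the number in the sample descriptions.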

Additional observations from a re-analysis of the deposited data

How the results depend on the processing

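CDX2, HNF4A and CEACAM1 kept their direction in each comparison under every alternative run, and kept the call in all but siPIR against SP2509 with the GC-length offset, where HNF4A was at -0.29 (edgeR adjusted p = 0.230). Leaving out each library in turn gave log2 fold changes in SP2509 against untreated cells of -0.75 to -0.60 for CDX2, -1.13 to -0.91 for HNF4A and 3.28 to 3.67 for CEACAM1. In siPIR against untreated cells they were -3.57 to -3.33, -2.62 to -2.10 and 1.14 to 1.51. The labels do not say that replicate numbers pair the samples (correlations of same-numbered deviations -0.024, -0.038 and 0.081), and with the replicate block 3 of the 10 genes were called in each comparison, beside 11179 of all genes in SP2509 against untreated cells, 14136 in siPIR against untreated cells and 13816 in siPIR against SP2509 cells. Blocking on the unexplained description number, which some samples of different groups share, also called 3 of the 10 genes in each, beside 12016, 13533 and 13199 of all genes in the same order. Alternatives were followed gene by gene only for the 10 genes and for genes named in each comparison, not for all tested genes. Of the named genes outside the 10, 7 turned sign in fitted log2 fold change. Other listed genes turned sign too. With the GC-length offset in siPIR against untreated cells ELF3 went from -1.23 to 0.79, CLDN7 from -1.30 to 1.77 and EPS8 from 0.81 to -0.50. Among the untested genes, leaving out libraries gave -0.74 to 0.068 for VIL1 and -1.22 to 0.079 for MUC13 in siPIR against untreated cells, and -0.14 to 0.50 for MUC13 in SP2509 against untreated cells, so neither has a settled direction there. With the GC-length offset KRT8 was at 0.13 in SP2509 against untreated cells, and KDM1A at 0.51, CEACAM19 at 0.49 and AXIN2 at 0.54 in siPIR against untreated cells. With total counts alone KRT18 was at -0.086 in SP2509 cells and CDH1 at -0.0073 in siPIR cells. PIR in SP2509 against untreated cells was at -0.28 without SP2509 replicate 1 and 0.053 without SP2509 replicate 2, and passed the threshold with upper-quartile scaling (-0.36) and total counts alone (-0.51). The offset and scaling alternatives differ from the reported fit by construction, and the causes were not tested. With 2 libraries per group and few counts, VIL1, MUC13 and the lower genes set the limit of what could be measured.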

Other observations

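Counts of calls in the lists below are to be read beside all tested genes. Of these 33.5% were higher and 35.1% lower in SP2509 cells, and 39.3% higher and 46.9% lower in siPIR cells. Crypt and stem cell genes were tested for 19 of 24 listed genes, and 5 were higher and 11 lower in SP2509 cells (median log2 fold change -0.47, 2 higher and 13 lower with total counts alone). TNFRSF19, a Wnt-responsive receptor gene, fell by 3.25, and AXIN2, a feedback target of Wnt signalling, fell to 7.70 ± 2.88 CPM in SP2509 cells, against 33.9 ± 0.338 CPM in untreated cells (SD, n = 2). The cell cycle kinase gene CDK6 rose by 0.94. LGR5, the stem cell receptor gene, had 0 counts in every library. In siPIR cells 8 were higher and 11 lower (10 and 6 with the offset, 5 and 12 with total counts alone). CDK6 rose by 3.13 (1.51 with the offset), and AXIN2 changed by -0.71 as fitted and 0.54 with the offset. The largest fall was -5.52 for KCNQ1 (-1.52 with the offset), which had 0 and 10 counts in the siPIR libraries.

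Of 31 tested genes of epithelial adhesion, junctions and keratins, 20 were higher and 5 lower in SP2509 cells, but 11 and 11 with total counts alone. OCLN rose by 1.54, TJP1 by 1.35 and KRT19 by 1.05, all genes of junctions or the keratin skeleton, and EPCAM by 0.66. The largest falls named were -0.73 for TJP3, -0.56 for CLDN3 and -0.54 for ESRP2. In siPIR cells 14 were higher and 15 lower (18 and 9 with the offset, 8 and 18 with total counts alone). The largest rise was 2.69 for DSC2 (0.98 with the offset). The largest fall was -7.66 for CLDN3 (-2.59 with the offset), which had 2 counts in each siPIR library. EPCAM rose by 1.75 (1.73 with the offset), while KRT8 fell by 2.87 (-0.74 with the offset).

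Of 12 tested enteroendocrine, tuft and Paneth cell genes 2 were higher and 6 lower in SP2509 cells. DCLK1, a tuft cell kinase gene, rose to 8.42 ± 2.08 CPM in SP2509 cells, against 0.308 ± 0.0335 CPM in untreated cells. Of the same list PTGS1 changed by -1.20, PAX6 by -1.01 and ALOX5 by -0.75 in SP2509 cells on the log2 scale. In siPIR cells 4 were higher and 6 lower, and 2 and 2 with the offset.

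Among markers of other cell types, the summed level of 8 fibroblast genes was 2.98 to 3.75 CPM in siPIR libraries, 56.0 to 66.1 CPM in SP2509 libraries, and 28.02 to 30.9 CPM in untreated libraries, with COL1A2 at 0. In SP2509 and untreated libraries nearly all of it came from COL1A1 and ACTA2. In siPIR libraries COL1A1 was at 1.36, ACTA2 at 1.41 and COL3A1 at 0.469 CPM on average. ACTA2 rose by 2.93 in SP2509 cells. Over all libraries, 8 leukocyte genes summed to 0.364 to 1.86 CPM with PTPRC, CD3E and MS4A1 at 0, 6 endothelial genes to 0.427 to 1.83 CPM with CDH5 and CLDN5 at 0, and 11 gastric, hepatic and squamous genes to 0.0521 to 1.08 CPM. The part of these markers in the results was not tested.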
